A study of Mus musculus with 32 samples.

Results

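The genes described here are 10 genes that mark resting microglia, the macrophages that live in brain and spinal cord. They are P2ry12, P2ry13, Siglech, Sall1, Tmem119, Gpr34, Fcrls, Olfml3, Selplg and Slc2a5. They were taken by gene symbol from the 19505 genes of the array series, all 10 were measured, and each rests on 1 probe. The series compared photothrombosis of the cerebrum with photothrombosis of the spinal cord. In this injury, light activates a dye in the blood and clots the vessels in its path. All animals were male wild-type C57BL/6J mice, 6 to 12 weeks old and 20 to 25 g in weight, with no transgene named in the labels. Cerebrum and cord were each sampled in controls and at 1, 3 and 7 days, with 4 arrays a group, so 8 groups and 32 arrays in all. The labels do not say whether control animals had surgery, and they call the groups controls of the cerebral and of the spinal model. They also do not say that each array was a separate animal, so a p-value reflects only how far these samples scatter, which may be technical.

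Resting microglia reach into the tissue with fine processes and hold a gene program that circulating monocytes largely lack. The purine receptors P2ry12 and P2ry13 sense nucleotides that leak from damaged cells, and P2ry12 is known to steer process movement. Transforming growth factor beta (TGF-beta) and the transcription factor Sall1 are known to maintain this program, and microglia that respond to injury commonly lose much of it. The other members act at the cell surface or outside it. Gpr34 is a receptor for lysophosphatidylserine, Siglech a sialic acid-binding lectin, Fcrls an Fc receptor-like scavenger receptor, and Selplg (PSGL-1) a ligand of selectins that other leukocytes also carry. Tmem119 is a membrane protein used as a microglia marker, Slc2a5 (GLUT5) a fructose transporter and Olfml3 a secreted glycoprotein.

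P2ry12 and P2ry13 are neighbours in the order of coding genes on chromosome 3, and their courses in the injured cord differed. The 250 bases before the start of each are shown for that reason, with those of Siglech, which moved like P2ry12 on day 1, and of Fcrls. They are from RefSeq on GRCm38.p6, whose promoter table held 7 of the 10 members and not Tmem119, Gpr34 or Selplg. Capitals mark the core GAGGAAG of the binding motif of PU.1, the factor encoded by Spi1, searched on both strands and without regard to overlap with other motifs.
P2ry12: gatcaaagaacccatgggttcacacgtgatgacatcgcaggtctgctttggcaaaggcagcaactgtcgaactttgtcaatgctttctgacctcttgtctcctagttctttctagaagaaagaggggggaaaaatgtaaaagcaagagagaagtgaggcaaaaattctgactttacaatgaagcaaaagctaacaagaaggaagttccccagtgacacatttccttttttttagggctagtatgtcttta
P2ry13: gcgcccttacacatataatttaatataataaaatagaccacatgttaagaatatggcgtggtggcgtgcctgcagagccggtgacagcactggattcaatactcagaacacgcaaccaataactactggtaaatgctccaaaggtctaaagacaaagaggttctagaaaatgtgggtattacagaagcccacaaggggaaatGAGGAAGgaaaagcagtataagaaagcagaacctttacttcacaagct
Siglech: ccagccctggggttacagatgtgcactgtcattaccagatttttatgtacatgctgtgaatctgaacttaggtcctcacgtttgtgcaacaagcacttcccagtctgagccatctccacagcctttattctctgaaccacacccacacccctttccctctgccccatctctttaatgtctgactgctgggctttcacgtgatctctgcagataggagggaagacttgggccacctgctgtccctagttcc
Fcrls: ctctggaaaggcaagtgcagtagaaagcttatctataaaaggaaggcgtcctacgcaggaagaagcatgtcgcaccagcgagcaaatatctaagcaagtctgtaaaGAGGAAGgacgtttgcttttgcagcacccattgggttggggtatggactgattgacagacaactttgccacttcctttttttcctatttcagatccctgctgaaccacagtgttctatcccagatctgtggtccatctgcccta
These windows are chr3:59262986-59263235 for P2ry12, chr3:59210883-59211132 for P2ry13 and chr3:87263525-87263774 for Fcrls, all on the minus strand, and chr7:55767934-55768183 on the plus strand for Siglech. The core stood 48 bases before the start in P2ry13 and 144 bases before it in Fcrls. It was in 2 of the 7 members' windows and in 10.6% of all 32851 promoter windows of that length. A match is a description of these letters and not a site in use. Tmem119 and Selplg are likewise neighbours, on chromosome 5.

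Values are on the log2 scale, where 1 unit is a 2-fold difference. The authors' values are centred per probe, so they carry no absolute level: 1 gene cannot be set against another, and it cannot be judged whether a gene was absent. The arrays of days 3 and 7 had each been centred separately, and their offset to the 8 controls was rebuilt for each gene. A difference is given ± its standard error from 1 limma fit over all 32 arrays and 24 residual degrees of freedom. That fit takes 1 spread per gene for all groups. Each member had its highest SD on spinal day 3, for example 0.925 for P2ry12 and 1.30 for Gpr34. Standard errors, intervals and p-values that use spinal day 3 therefore understate the scatter of that group. A gene is called changed where the Benjamini-Hochberg adjusted p over 19505 genes was under 0.05. Differences across the separately centred days had to exceed a bound of 0.162 at day 3 and 0.178 at day 7, to which the remaining range of the offset was added. For day 7 against day 3 both bounds were added together. The median residual SD of all genes was 0.185. Spinal day 3 replicate 1 stood apart, with the lowest array weight (0.225), so the counts and the main differences that use that group are also given without it. The numbers in the sample titles fall in a different range for each group. Only the spinal day 7 titles begin with P, and all others begin with G. Among the G titles, those of both control groups come before those of all injured groups. If a range or a letter is a batch, it cannot be told apart from the group. In whole tissue, fewer cells of a type and less RNA per cell cannot be told apart.

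**Figure D1:**
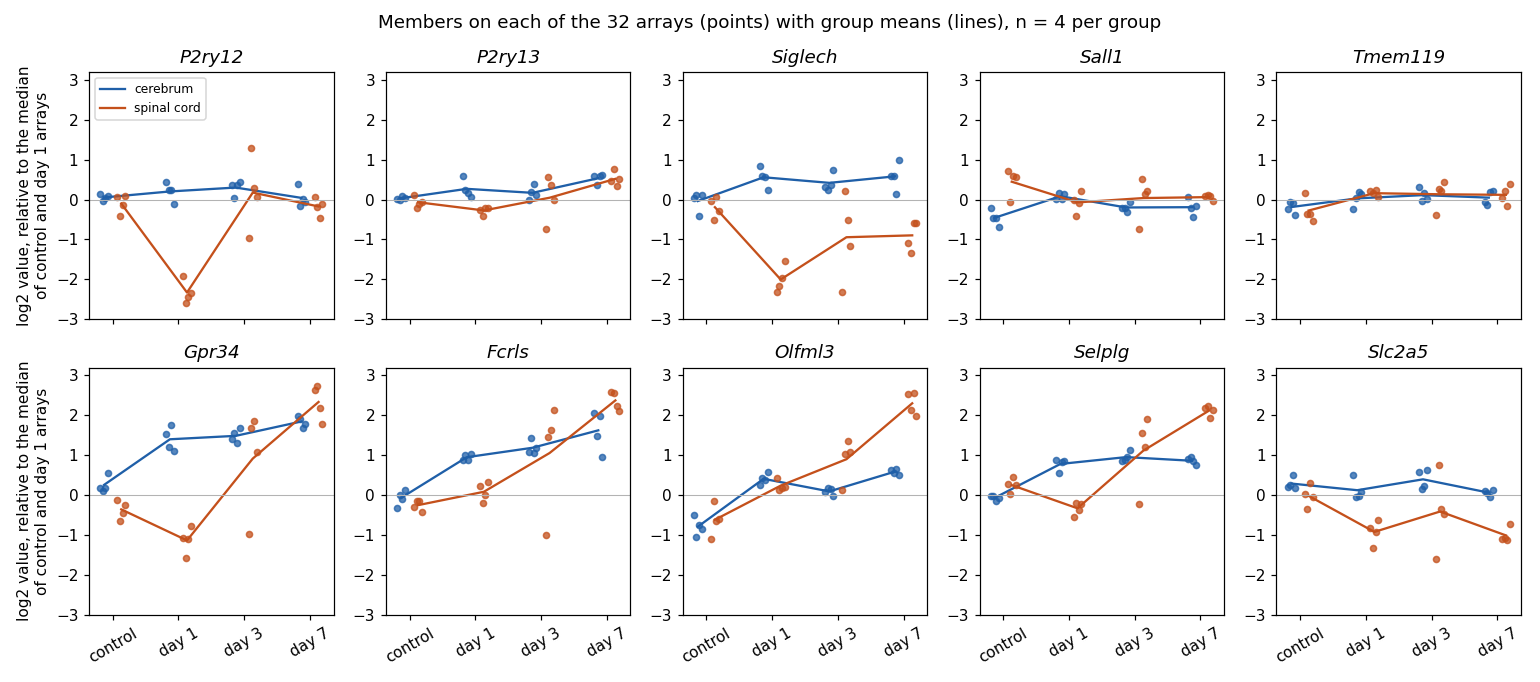
Log2 value of each of the 10 genes on each of the 32 arrays (points) and the mean of each group of 4 (lines), by day, for cerebrum and spinal cord; values are relative to the median of the control and day 1 arrays. P2ry12 at spinal day 1 lies between -2.59 and -1.93, below all other arrays, while Gpr34 at spinal day 7 lies between 1.77 and 2.73.

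Between the control tissues, 1 of the 10 members passed. Sall1, a zinc finger factor that holds the microglial program, was higher in cord, while the other 9 did not pass. Sall1 read 0.71, -0.06, 0.58 and 0.56 in the spinal controls and -0.21, -0.45, -0.47 and -0.68 in the cerebral controls. The groups did not overlap, and the difference was 0.90 ± 0.18, a 1.87-fold higher value in cord (limma adjusted p = 0.00013, n = 4 a group). Of all genes, 34.8% differed between the control tissues, 17.2% higher and 17.6% lower in cord, so 1 of 10 members is below the background. Gpr34 stood at -0.62 in cord against cerebrum (limma adjusted p = 0.165) and Selplg at 0.32 (0.31). Neither passed, but the arrays of the 2 tissues did not overlap for either gene. The members' median difference was -0.13, against -0.02 for all genes.

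In the injured cerebrum, 4 members rose on every day: the lipid receptor Gpr34, the scavenger receptor Fcrls, the secreted Olfml3 and the selectin ligand Selplg. Sall1 rose on day 1 only by the test, and no member was called lower on any day. The purine receptor P2ry12 stayed near its control values throughout, with differences of 0.15, 0.25 and -0.01 on days 1, 3 and 7. The members called were 5, 4 and 4 of 10 on the 3 days. Among all genes, 17.1% changed on day 1 (8.91% higher, 8.22% lower), 6.33% on day 3 (3.49% higher, 2.85% lower) and 6.58% on day 7 (4.5% higher, 2.09% lower). The members' median difference was 0.57, 0.38 and 0.56, against -0.01, -0.03 and -0.05 for all genes.

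Of the receptors, Gpr34 read 0.18, 0.11, 0.19 and 0.56 in the cerebral controls and 1.54, 1.22, 1.75 and 1.10 on day 1. It read 1.40, 1.56, 1.30 and 1.69 on day 3 and 1.99, 1.92, 1.69 and 1.79 on day 7. Every injured array lay above every control. The differences were 1.14 ± 0.33 (limma adjusted p = 0.0173), 1.23 ± 0.33 (0.0337) and 1.59 ± 0.33 (0.00367), the last a 3.01-fold rise. P2ry12 read 0.13, -0.03, 0.03 and 0.08 in the controls, 0.44, 0.24, 0.25 and -0.11 on day 1, and 0.40, -0.17, 0.01 and -0.07 on day 7. These arrays overlap, and the interval of the difference ran from -0.36 to 0.66 on day 1 and from -0.70 to 0.67 on day 7. P2ry13, its neighbour and relative, stood at 0.24, 0.14 and 0.50 above control on the 3 days and did not pass.

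Fcrls rose by 1.02 ± 0.35 on day 1 (limma adjusted p = 0.0409), 1.26 on day 3 (0.0363) and 1.69 on day 7 (0.00265), when its arrays read 2.07, 1.49, 1.98 and 0.96 against -0.33 to 0.14 in the controls. Selplg rose by 0.85 ± 0.23 (0.00991), 1.02 (0.0109) and 0.93 (0.026). All injured arrays of both genes lay above all controls. The lectin Siglech stood at 0.60 ± 0.30 on day 1, 0.46 on day 3 and 0.62 on day 7, with all injured arrays above all controls, and did not pass (adjusted p = 0.18, 0.715 and 0.441). In all, 6 members had all injured arrays above the controls on day 1, as 12.5% of all genes had.

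Olfml3 showed the clearest rise in the cerebrum. Its controls read -0.49, -1.06, -0.76 and -0.85, its day 1 arrays 0.26, 0.43, 0.38 and 0.57, and its day 7 arrays 0.64, 0.56, 0.66 and 0.52. The groups lay apart, and the differences were 1.20 ± 0.18 on day 1 (limma adjusted p = 3.36e-05), 0.88 on day 3 (0.00776) and 1.38 on day 7 (1.52e-05). Sall1 rose by 0.54 ± 0.18 on day 1 (0.034), and its 4 arrays lay above the controls. Tmem119 stood at 0.22, 0.30 and 0.24 and the transporter Slc2a5 at -0.17, 0.11 and -0.23, all within overlapping arrays on day 1. On day 7 all Slc2a5 arrays lay below all controls and all P2ry13 arrays above them, though neither gene passed. The calls of Fcrls on days 1 and 3 did not hold when any 1 of the 8 arrays was left out (adjusted p up to 0.102 on both days). Sall1 on day 1 lost its call without any 1 of 7 of the 8 arrays (up to 0.109), Gpr34 on day 3 without any 1 of 6 (up to 0.0924) and Selplg on day 7 without any 1 of 5 (up to 0.0709). Without cerebral day 1 replicate 3, Gpr34 on day 1 stood at 1.03 (0.0595). With the values as deposited, before the offset was rebuilt, the day 7 differences were 0.46 for Gpr34 (0.433) and 0.33 for Selplg (0.409).

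Between the injured days of the cerebrum, 0 of 10 members passed in limma for day 7 against day 1, day 7 against day 3, or day 3 against day 1, the last a comparison added after the data were seen. Of all genes, 2.88% changed between days 7 and 1 (1.55% higher, 1.32% lower), 0.287% between days 7 and 3 (0.231% higher, 0.0564% lower) and 0.00513% between days 3 and 1, with 0% lower. At an unadjusted p under 0.05 the count was also 0 in each. The widest of these differences was that of Fcrls, 0.67 between day 7 and day 1 (adjusted p = 0.608). These tests were against the bound, and some arrays did lie apart. Day 7 arrays lay all above those of day 3 for 2 members and all below for 1. Day 3 arrays lay all above those of day 1 for 1 member and all below for 2. The share of all genes is not given for this. Olfml3 read -0.03 to 0.17 on day 3, below its day 1 (0.26 to 0.57) and day 7 arrays (0.52 to 0.66).

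**Figure D2:**
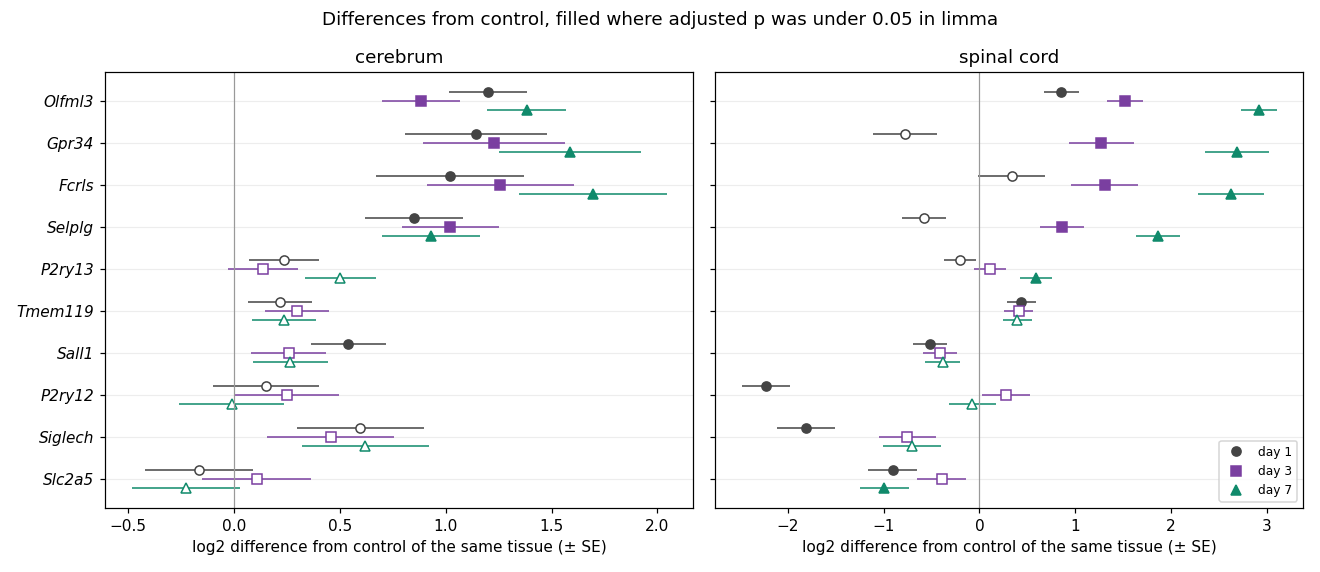
Log2 difference from the control of the same tissue (± SE, n = 4 arrays a group) for each gene on days 1, 3 and 7, cerebrum at left and spinal cord at right; filled symbols had a limma adjusted p under 0.05. P2ry12 and Siglech stand at -2.23 and -1.81 on spinal day 1, and Olfml3, Gpr34 and Fcrls between 2.62 and 2.92 on spinal day 7.

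On day 1 in the spinal cord the members split. P2ry12 fell 4.69-fold, Siglech 3.51-fold, Slc2a5 1.87-fold and Sall1 1.43-fold, while Olfml3 and Tmem119 rose. So 4 members were lower and 2 higher, where 31.9% of all genes changed (16.1% lower, 15.8% higher). The members' median difference was -0.55 and that of all genes 0.02. All 4 day 1 arrays lay below all controls for 6 members and above them for 1, as they did for 13.4% and 13.3% of all genes.

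P2ry12 read 0.07, -0.42, -0.14 and 0.10 in the spinal controls and -1.93, -2.59, -2.45 and -2.35 on day 1. Each day 1 array lay below the lowest control, and the difference was -2.23 ± 0.25 (limma adjusted p = 7.41e-08). P2ry13 read 0.10, -0.21, -0.10 and -0.06 in the controls and -0.26, -0.40, -0.21 and -0.21 on day 1. Its arrays were also all lower, but by only 0.21 ± 0.17, which did not pass (0.364). Gpr34 went from -0.11, -0.64, -0.44 and -0.24 to -1.08, -1.58, -1.10 and -0.77. All its day 1 arrays lay below the controls, and its difference of -0.78 ± 0.33 did not pass (adjusted p = 0.0749).

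Siglech read -0.04, -0.50, 0.05 and -0.28 in the spinal controls and -2.33, -2.17, -1.97 and -1.55 on day 1, a difference of -1.81 ± 0.30 (limma adjusted p = 3e-05). Selplg, which neutrophils and lymphocytes carry too, stood at -0.58 ± 0.23 (0.0524) with all arrays below the controls. Fcrls stood at 0.33 ± 0.35 (0.495), with overlapping arrays. The fructose transporter Slc2a5 read 0.02, -0.34, 0.30 and -0.05 in the controls and -0.82, -1.32, -0.93 and -0.61 on day 1. Its groups did not overlap, and it fell by 0.90 on the log2 scale (0.00733).

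Sall1 stood at -0.52 ± 0.18 (limma adjusted p = 0.0258) and Tmem119 at 0.44 ± 0.15 (0.0275), both with overlapping arrays. Olfml3 rose by 0.86 ± 0.18 (0.000669), with day 1 arrays of 0.44, 0.14, 0.17 and 0.21 above controls of -1.09 to -0.14. Leaving out 1 array in turn ended the call of Sall1 in 4 of 8 cases (adjusted p up to 0.11) and that of Tmem119 in 5 of 8 (up to 0.103). P2ry12, Siglech, Slc2a5 and Olfml3 kept theirs in every case.

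The spinal controls carried skeletal muscle RNA in unequal amounts. The mean of 10 muscle genes ran from 0.21 to 3.60 in the 4 controls and from -0.06 to 0.33 on day 1, and 10 of 10 of these genes were lower on day 1, 9 on day 3 (8 without its replicate 1) and 7 on day 7. With controls 3 and 4 alone, whose muscle means were 1.24 and 0.21, P2ry12 stood at -2.31 and Siglech at -1.89 on day 1. Neuron genes also moved with the cord injury: 3 of 7 were lower on day 1, 5 on day 3 (with or without its replicate 1) and 7 on day 7, and their mean ran from -0.64 to -0.37 in controls and from -2.65 to -1.96 on day 7. Their part in the members' values was not tested.

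On days 3 and 7 in the cord, the arrays of P2ry12 overlapped its controls again, while Gpr34, Fcrls, Olfml3 and Selplg rose. On day 3 these 4 members were higher and 0 lower, where 19.9% of all genes changed (10.3% higher, 9.64% lower). On day 7, 5 were higher and 1 lower, where 31.8% changed (15.2% higher, 16.6% lower). The members' median difference was 0.34 and 0.49, and that of all genes -0.08 and -0.10.

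P2ry12 read -0.95, 1.30, 0.29 and 0.06 on spinal day 3 and 0.05, -0.18, -0.45 and -0.11 on day 7. The day 7 arrays overlap the controls, and the difference was -0.07 with an interval from -0.76 to 0.61. P2ry13 read 0.46, 0.76, 0.34 and 0.51 on day 7, all above its controls, and rose 1.5-fold (0.59 ± 0.17, limma adjusted p = 0.0332). That call was lost without any 1 of 5 of the 8 arrays (up to 0.112) and with 75th percentile scaling (0.0672). Gpr34 read -0.96, 1.69, 1.87 and 1.07 on day 3 and 2.64, 2.73, 2.19 and 1.77 on day 7. The day 7 arrays stood far above the controls, and the rise was 2.69 ± 0.33, or 6.46-fold (1.51e-07).

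Fcrls read -0.99, 1.46, 1.64 and 2.12 on day 3 and 2.59, 2.56, 2.23 and 2.12 on day 7, a rise of 2.62 ± 0.35 by day 7 (limma adjusted p = 4.88e-07). Selplg read 2.18, 2.24, 1.93 and 2.13 on day 7 and rose by 1.87 ± 0.23 (2.08e-07). Siglech read -2.31, 0.21, -0.50 and -1.17 on day 3, from above to below all of its controls, and -1.08, -1.34, -0.58 and -0.58 on day 7. All its day 7 arrays lay below the controls, but the difference of -0.71 ± 0.30 did not pass (0.127).

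Slc2a5 was the only member called lower on day 7. Its arrays read -1.10, -1.08, -1.13 and -0.72, below all controls, and the difference was -0.99 ± 0.26 (limma adjusted p = 0.00707), though with quantile normalisation on top it was -0.59 (0.146). Olfml3 rose the most of the 10, from controls of -1.09, -0.14, -0.65 and -0.59 to 2.53, 2.13, 2.55 and 1.99 on day 7. That is 2.92 ± 0.18, or 7.56-fold (1.08e-13). Sall1 (-0.39) and Tmem119 (0.39) did not pass on day 7 (0.286 and 0.202).

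Replicate 1 of spinal day 3 was the lowest array of its group for all 10 members, and for Gpr34, Fcrls and Selplg it was the only array of the group within or below the range of the controls. With it, the day 3 differences were 1.27 for Gpr34 (limma adjusted p = 0.0095), 1.31 for Fcrls (0.0103), 1.52 for Olfml3 (9.72e-07) and 0.86 for Selplg (0.0159). Without it they were 1.90, 1.99, 1.78 and 1.31, and Tmem119 passed as well (0.58, adjusted p = 0.0225). P2ry12 stood at 0.27 with it and 0.65 without it (0.692 and 0.059), and Siglech at -0.75 and -0.30 (0.122 and 0.658). Without replicate 4, 2 members passed on day 3, since Fcrls (0.95, adjusted p = 0.0708) and Selplg (0.60, 0.11) no longer did. Without replicate 3, Gpr34 stood at 0.96 (0.0684). Without replicate 2, Siglech (-1.14, 0.00489) and Slc2a5 (-0.78, 0.0178) passed as lower, and Selplg did not pass (0.72, 0.0651).

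Between day 1 and day 7 in the cord, 7 members rose and 0 fell, where 27.6% of all genes changed (13.9% higher, 13.7% lower). Gpr34 rose 11.1-fold (3.47 ± 0.33, limma adjusted p = 1.44e-09), P2ry12 4.46-fold (2.16 ± 0.25, 8.33e-08) and Siglech 2.15-fold (1.11 ± 0.30, 0.0109). Selplg (2.45), Fcrls (2.29), Olfml3 (2.06) and P2ry13 (0.79) rose too, while Slc2a5 (-0.09), Sall1 (0.13) and Tmem119 (-0.04) did not pass. With any 1 array left out, 7 members were called, a count given without the share of all genes in those fits.

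P2ry12 stood above its day 1 values by day 3. In a comparison added after the data were seen, day 3 against day 1, P2ry12 stood 2.50 ± 0.25 higher (5.68-fold, limma adjusted p = 1.16e-07). Its SD was 0.925 on spinal day 3 and 0.286 on spinal day 1, so this standard error understates the day 3 scatter. P2ry12 was 1 of 5 members that rose, with Gpr34 (2.05), Selplg (1.44), Siglech (1.06) and Olfml3 (0.66), where 11.9% of all genes changed (6.85% higher, 5.04% lower). Without spinal day 3 replicate 1, 8 members rose, where 1429 of all 19505 genes were higher and 915 lower. Without any 1 of replicates 2 and 3 of day 1 or of day 3, 3 rose, a count given without the share of all genes. P2ry12 was called in every case. Olfml3 lost its call in 6 of 8 such cases (adjusted p up to 0.206) and Siglech in 5 (up to 0.176). From day 3 to day 7, 2 members rose, Gpr34 (1.42 ± 0.33, adjusted p = 0.0283) and Olfml3 (1.40 ± 0.18, 8.52e-05), where 6.15% of all genes changed (3.59% higher, 2.56% lower). The rise of Gpr34 was 0.79 without day 3 replicate 1 (0.221), and without day 7 replicate 1 or 2 it was 1.32 (0.0896) or 1.29 (0.125). That of Olfml3 was 1.14 (0.000506) without day 3 replicate 1.

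**Figure D3:**
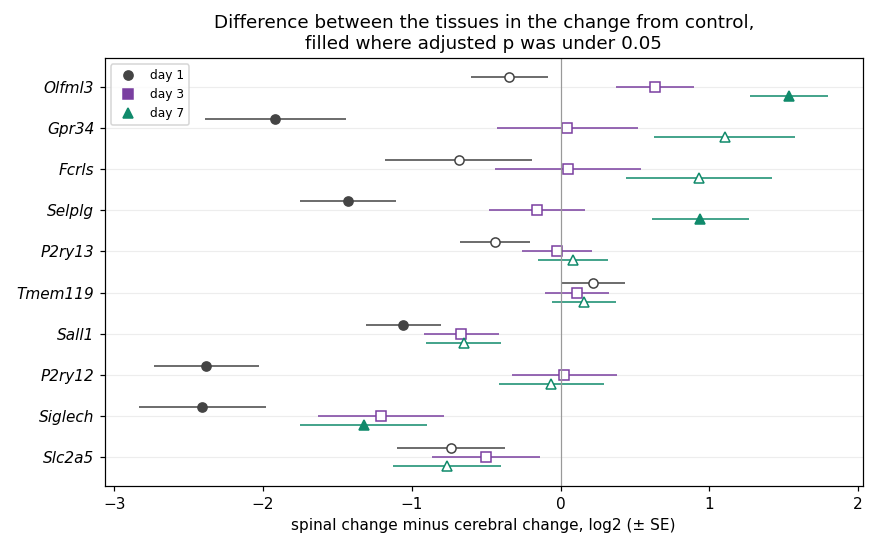
Change from control in the spinal cord minus that in the cerebrum (log2, ± SE) for each gene on days 1, 3 and 7; filled symbols had a limma adjusted p under 0.05. On day 1 the 5 filled symbols lie between -2.41 and -1.06, and on day 7 Olfml3 and Selplg lie above 0 and Siglech at -1.32.

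The change from control differed between the tissues, and at the adjusted threshold most members passed on day 1. On that day 5 members moved lower in cord than in cerebrum and 0 higher, where 6.58% of all genes did so and 4.7% the reverse (11.3% in all). The differences were -2.38 ± 0.35 for P2ry12 (limma adjusted p = 6.17e-05), -2.41 ± 0.42 for Siglech (0.000381), -1.92 ± 0.47 for Gpr34 (0.00825), -1.43 for Selplg (0.00432) and -1.06 ± 0.25 for Sall1 (0.00625). Gpr34, Selplg and Sall1 had risen in the cerebrum on that day. These 5 were called with any 1 array left out. For Tmem119 the difference was 0.22, with an interval from -0.22 to 0.66, and for Fcrls -0.69, with an interval from -1.69 to 0.32. The members' median difference was -0.90, against 0.03 for all genes. It is not particular to the members. The mean of the 7 pan-myeloid genes described below went from -0.62 to 0.95 in the cerebrum on day 1. In the cord it went from -0.27 to 0.34, so it too rose less there.

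On day 3, 0 of 10 members differed between the tissues in limma, where 9.27% of all genes did (4.08% higher and 5.19% lower in cord). At an unadjusted p under 0.05 there were 3, Siglech, Sall1 and Olfml3. Olfml3 stood at 0.63 (adjusted p = 0.129), and passed at 0.89 (0.00768) without spinal day 3 replicate 1. Siglech stood at -1.21 (0.0691) and Sall1 at -0.67 (0.0938). Both passed without spinal control replicate 2 (-1.31 and -0.84), when Olfml3 did too (0.79), or without spinal day 3 replicate 2 (-1.59 and -0.83), when Slc2a5 did too (-0.89). The interval for P2ry12 ran from -0.69 to 0.74, and without spinal day 3 replicate 1 its difference was 0.40 (0.431).

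By day 7, Olfml3 (1.54 ± 0.26, limma adjusted p = 3.98e-05) and Selplg (0.94, 0.0297) had moved higher in cord than in cerebrum, and Siglech lower (-1.32 ± 0.42, 0.0184). That is 2 higher and 1 lower, where 13% and 14.6% of all genes were (27.6% in all), so the share is near the background. At an unadjusted p under 0.05 there were 6 members on day 7 and 5 on day 1. P2ry12 stood at -0.06, with an interval from -0.78 to 0.66. With quantile normalisation on top, Olfml3 was at 0.31 (0.439) and Selplg turned to -0.40 (0.342). Selplg also lost its call without cerebral day 7 replicate 4, spinal control replicate 2 or spinal day 7 replicate 2 (0.86 to 0.90, adjusted p up to 0.0565).

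Genes listed here as pan-myeloid rose with the members that rose. Of 7 pan-myeloid genes (Csf1r, Aif1, Itgam, Ptprc, Laptm5, Fcer1g and Tyrobp), 6, 6 and 7 were higher in the cerebrum on days 1, 3 and 7, and 4, 7 and 7 in the cord, where day 3 gave 7 also without its replicate 1. Their median difference was 1.57, 1.77 and 2.03 in the cerebrum and 0.57, 2.25 and 3.90 in the cord. On spinal day 1, when P2ry12 stood at -2.23, Aif1 (Iba1, the usual stain for microglia) stood at -0.15 (limma adjusted p = 0.805) and Csf1r, the receptor microglia need to survive, at 0.21 (0.53). Itgam, which neutrophils also carry, rose by 1.49 (2.26e-05). The mean of the 7 genes ran from -0.44 to -0.19 in the spinal controls, from 0.27 to 0.40 on day 1 and from 3.09 to 3.73 on day 7.

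**Figure D4:**
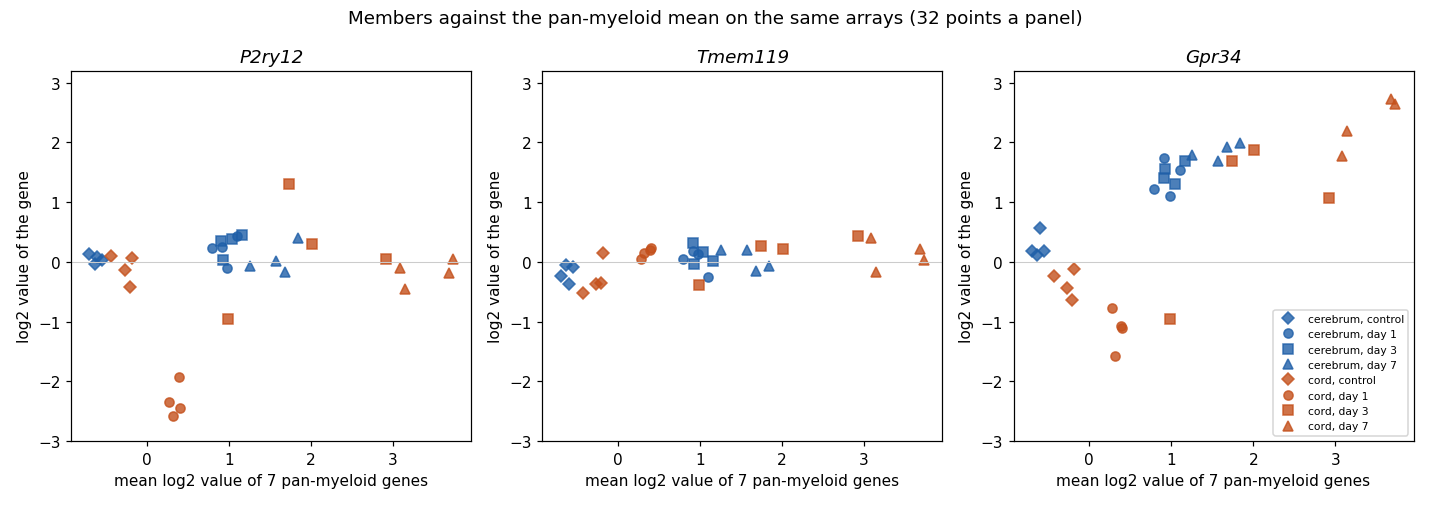
Log2 value of P2ry12, Tmem119 and Gpr34 on each of the 32 arrays (y axis) against the mean log2 value of 7 pan-myeloid genes on the same array (x axis); colour gives the tissue and symbol the day. The spinal day 7 arrays lie furthest right, between 3.09 and 3.73, where P2ry12 reads -0.45 to 0.05 and Gpr34 1.77 to 2.73.

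Set against the mean of these 7 genes on each array, 8, 6 and 8 members were lower than control in the cerebrum and 7, 9 and 9 in the cord on days 1, 3 and 7. On that scale 98.6%, 96.5% and 98.3% of all genes were lower in the cerebrum and 45.1%, 97.3% and 98.7% in the cord. On spinal day 1, 7 of 10 members against 45.1% is above the background. On spinal days 3 and 7, 9 of 10 against 97.3% and 98.7% is near the background. In the cerebrum the members' share was below it, most of all on day 3, with 6 of 10 against 96.5%. Because the mean of the 7 genes rose, nearly every gene was lower on this scale in these 5 comparisons. A count of members lower there is therefore not particular to the members. On spinal day 3, 7 in place of 9 members were lower without its replicate 1, where 98.3% of all genes were. There the members' median was -1.88 and that of all genes -2.58. For spinal day 1 these medians were -1.17 and -0.59. With Csf1r and Aif1 alone as the reference, 2 members were lower on spinal day 1 in place of 7, where 0.672% of all genes were. Their median was then -0.58 and that of all genes -0.00431.

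Markers of other cell types that can carry some members also moved, in both tissues. Of 12 monocyte and infiltrating macrophage genes, 5, 6 and 7 were higher in the cerebrum on days 1, 3 and 7, with 1 lower on day 3. Their mean ran from -0.81 to -0.62 in the cerebral controls, from 0.08 to 0.34 on day 1, from 0.24 to 0.45 on day 3 and from 0.57 to 0.92 on day 7, so every injured array lay above every control. Of 8 border macrophage genes, 0, 1 and 2 were higher in the cerebrum in limma, with 2 at an unadjusted p under 0.05 on day 1. Their mean ran from -0.31 to -0.17 in the cerebral controls, from 0.03 to 0.14 on day 1, from 0.23 to 0.43 on day 3 and from 0.43 to 0.66 on day 7. In the cord, 5, 9 and 11 of the monocyte genes were higher, and 4, 7 and 6 of the border macrophage genes. The spinal day 3 counts were 10 and 5 without replicate 1. The border macrophage mean ran from -0.64 to 0.57 in the spinal controls and from 2.20 to 2.72 on day 7. Of 9 neutrophil genes, 4 were higher and 1 lower on day 1, 1 was higher on day 3 (also without its replicate 1) and 7 were higher on day 7, with a mean of 1.84 to 3.31 on day 7 against 0.07 to 0.81 in controls. In the cerebrum 0 of 9 neutrophil genes passed on any day in limma, also at an unadjusted p under 0.05. The part of these cells in the rise of Selplg, Fcrls, Gpr34 and Olfml3 was not tested.

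Further genes of the homeostatic program were called in both directions in the cord and only higher in the cerebrum. Of 15 measured, 6, 4 and 7 rose in the cerebrum and 0 fell. In the cord 2 rose and 3 fell on day 1, 8 rose and 1 fell on day 3 (9 and 0 without its replicate 1), and 11 rose and 1 fell on day 7. The 3 that fell on spinal day 1 were the TGF-beta receptor Tgfbr1 (-0.99, limma adjusted p = 0.000238), Lpcat2 (-0.84, 0.000441), which makes platelet-activating factor, and Crybb1 (-0.51, 0.0167), a crystallin found in microglia. The phagocytic receptor Mertk (0.71, 0.00165) and the ectonucleotidase Entpd1 (0.42, 0.0267) rose. Cx3cr1, the fractalkine receptor, stood at 0.04 on spinal day 1 (0.936) and rose by 1.76 on day 7 (9.28e-05). Crybb1 was still lower on day 7 (-0.57, 0.0369), like Slc2a5. The list's median was 0.40, 0.28 and 0.65 in the cerebrum and 0.04, 0.61 and 1.17 in the cord. In the difference between tissues on day 1, 5 of the 15 were lower in cord and 0 higher, among them Lpcat2 (-1.65, 6.17e-05) and Csf1r (-1.66, 0.00144).

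TGF-beta genes, 9 in all, included 2, 2 and 3 higher in the cerebrum on days 1, 3 and 7, and in the cord 4 higher and 1 lower on day 1, 4 higher on day 3 (5 without its replicate 1) and 5 on day 7. The ligand Tgfb1 rose on spinal day 1 (1.26, limma adjusted p = 0.000455) while its receptor chain Tgfbr1 fell. On day 7, Tgfb1 (3.25), Tgfbr2 (3.19), Tgfbr1 (2.14) and Nrros (1.96), which holds latent TGF-beta on myeloid cells, were all higher. Of 8 myeloid transcription factors, 2, 1 and 1 rose in the cerebrum. In the cord 4 rose and 2 fell on day 1, 5 rose on day 3 (with or without its replicate 1) and 4 on day 7. Spi1, which encodes PU.1, rose by 1.62 on spinal day 1 (9.28e-07), when Bhlhe41 (-0.80, 0.00034) and Mef2c (-0.80, 0.0175) fell.

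Of 6 other purine receptors and ectoenzymes, 1, 1 and 2 rose in the cerebrum and 3, 4 and 4 in the cord, and 0 fell. On spinal day 3 it was 3 without replicate 1. On spinal day 1 the UDP receptor P2ry6 rose by 0.70 (limma adjusted p = 0.000696), opposite to P2ry12, and the adenosine-forming enzyme Nt5e by 0.78 (0.0224). The ATP-gated channels P2rx4 (-0.09) and P2rx7 (-0.09) did not pass on day 1 and rose by 2.13 (2.29e-12) and 1.54 (4.88e-09) on day 7. P2ry1, an ADP receptor like P2ry12, stood at -0.27 on day 1 and on day 7 and did not pass.

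Over the 32 arrays the members did not form a single pattern. The 45 pairs had a median Pearson r of 0.32 over arrays, and 38 were above 0. Fcrls and Selplg were the most alike (0.89), followed by Gpr34 and Fcrls (0.87) and P2ry13 and Gpr34 (0.87). Siglech was most like Slc2a5 (0.84), while Olfml3 and Slc2a5 ran opposite (-0.50). These 5 values were 0.89, 0.86, 0.87, 0.81 and -0.57 without spinal day 3 replicate 1. Inside groups the median r was 0.62, but -0.0026 without spinal day 3 replicate 1, when 22 of 45 were above 0. These arrays share their hybridisation and their group means, so r is a description.

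Among the other 19495 genes, those most like the mean of the 10 members over 32 arrays were H2az2 (r = 0.91), H4c8 (0.88), Cx3cr1 (0.88), Arsb (0.87) and Aif1 (0.87). Without spinal day 3 replicate 1 these were 0.89, 0.87, 0.86, 0.85 and 0.89 over 31 arrays. H2az2 encodes a histone variant, H4c8 a histone, and Arsb a lysosomal sulfatase. For P2ry12 alone they were Zfp706 (r = 0.81, Spearman's rho 0.53), Usf2 (0.81 and 0.23), Ttc30b, Stk4 and Zfp433. For Tmem119 they were Comtd1 (0.74), Spint1 (0.71), Taar2, Tlr2 and Ccdc190. Centred within groups, those most like the mean of the members were Nme3 (0.94), Akr1e1, C4a, Gpr17 and Mia. Without spinal day 3 replicate 1 their r was 0.51 to 0.68.

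In the order of group means, spinal day 1 was the lowest of the 8 groups for P2ry12 (-2.33 ± 0.29, SD, n = 4), P2ry13 (-0.27 ± 0.09), Siglech (-2.00 ± 0.34), Gpr34 (-1.13 ± 0.33) and Selplg (-0.33 ± 0.16). Spinal day 7 was the highest for Gpr34 (2.34 ± 0.44), Fcrls (2.38 ± 0.24), Olfml3 (2.30 ± 0.28) and Selplg (2.12 ± 0.13). For P2ry12 the other 7 groups lay between -0.17 and 0.30, closer than the SD of spinal day 3 (0.92). For Tmem119 all 8 group means lay between -0.28 and 0.16, and for Sall1 between -0.46 and 0.45. Without its replicate 1, the spinal day 3 mean was 0.55 ± 0.66 (SD, n = 3) for P2ry12 and 0.30 for both Tmem119 and Sall1. Slc2a5 was lowest on spinal day 7 (-1.01 ± 0.19) and spinal day 1 (-0.92 ± 0.30), which do not differ beyond their spread.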

How the data were processed

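Expression arrays of total RNA from mouse cerebrum and spinal cord were analysed, 32 arrays in 8 groups of 4. According to the labels, 10 ng of TRIzol-extracted RNA from frozen tissue was amplified and biotin-labelled for each array. The authors deposited log2 values, from -5.58 to 8.04, with array medians of -0.06 to 0.03. How they summarised the probes, and on which build, is not stated by the sources used here. No scanner signals were used, so signal over background is unknown and the precision is limited by the number of arrays.

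Of 22206 probes, 19572 carry 1 symbol, which gives 19505 genes. The values are centred per probe. The 16 control and day 1 arrays share a median of 0 in 100% of probes, and the day 3 and day 7 arrays were each centred with the 8 controls, which matched in 86.8% and 86.4% of probes tested. The offset was rebuilt from this, and was a single value for all members except Sall1 on day 3. An allowance of 0.162 and 0.178, 2 times the 95th percentile of the shortfall seen where the offset could be checked, was added to the bound. Groups come from the labels, and replicate numbers follow deposition order. One limma fit with 8 group means gave all tests, and differences between tissues and between controls were tested against 0. The fit was tested on simulated data.

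Named genes are the 10 members, genes of the 16 further lists, and the 5 genes with the highest Pearson r to P2ry12, Tmem119 or the members' mean. Members and lists were chosen with earlier results of these data known. Some lists share genes (Csf1r, Tgfbr1, Entpd1 and Tyrobp), so their counts are not independent. Lists not described in the results are activated phagocyte genes, lymphocytes, cell cycle, astrocytes, oligodendrocytes and endothelial cells, given in the closing section. Alternatives were quantile normalisation on top, 75th percentile scaling, array weights, robust eBayes, fewer controls, values as deposited, an exact offset, a filter on variable genes and each array left out. The fits used limma 3.58.1 (R 4.3.3). The offsets used pandas 2.3.3 and numpy 2.4.6 under Python 3.11.15, and the figures used matplotlib 3.10.9.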

Additional observations from a re-analysis of the deposited data

Results flagged for a closer look

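Of 80 groups of 4 arrays (10 members in 8 groups), 4 held an array whose gap to the nearest other exceeded Dixon's critical value for 4 samples, and chance gives about 1 in 20. P2ry13 read 0.356 in cerebral day 7 replicate 2, against 0.581 to 0.604 in the other arrays. Siglech read -0.401 in cerebral control replicate 3, against 0.0362 to 0.114. Selplg read 0.545 in cerebral day 1 replicate 2, against 0.835 to 0.886. Slc2a5 read -0.719 in spinal day 7 replicate 4, against -1.13 to -1.08.

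The change from control differed between cord and cerebrum in 8 tests of single members, by limma's test of the difference. On day 1 the difference was -2.38 for P2ry12, -2.41 for Siglech, -1.92 for Gpr34, -1.43 for Selplg and -1.06 for Sall1. On day 7 it was 1.54 for Olfml3, 0.938 for Selplg and -1.32 for Siglech.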

How the results depend on the processing

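Of 1490 values of single members under other processing, 1365 kept their direction and their side of the threshold, 44 lost a call, 39 gained one, 41 were uncalled values that changed sign and 1 reversed. The reversed value was Selplg in the difference between tissues on day 7, -0.397 with quantile normalisation on top. With 1 array left out, 1364 of 1520 values were the same, 70 lost a call, 25 gained one, 61 were uncalled values that changed sign and 0 reversed. P2ry12, Siglech, Slc2a5 and Olfml3 on spinal day 1 kept their calls under every alternative run. The causes of the changes in count below were not tested, except that fewer controls leave fewer arrays. The counts below are given without the share of all genes called under the same setting. A change in count is therefore not a result about the members.

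In the cerebrum, members called on day 1 (5) were 1 with controls 1 and 2 only, 2 with controls 3 and 4 only, and 2 to 4 with 1 array left out. On day 3 (4) they were 0 and 1 with those controls, 2 with robust eBayes, and 2 to 3 with 1 array left out. On day 7 (4) they were 2 with controls 3 and 4 only, 2 with values as deposited, and 3 to 4 with 1 array left out. Between the controls (1) they were 2 with quantile normalisation on top. In the cord, day 3 against control (4) gave 2 to 5 with 1 array left out. Day 3 against day 1 (5) gave 8 with array weights and 3 to 8 with 1 array left out. Day 7 against day 3 (2) gave 1 with array weights, 5 with the offset taken as exact, 0 with quantile normalisation on top, 1 with robust eBayes, and 1 to 4 with 1 array left out. The difference between tissues on day 3 (0) gave 1 with array weights, 2 with quantile normalisation on top, and 0 to 3 with 1 array left out. On day 7 (3) it gave 7 with array weights, 1 with cerebral controls 1 and 2 only, and 2 to 4 with 1 array left out. Members lower relative to pan-myeloid genes on spinal day 1 (7) were 2 with Csf1r and Aif1 as reference.

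The list counts, likeness, pairs and group means without spinal day 3 replicate 1, and the share of all genes lower against Csf1r and Aif1, were added after the data were seen. No paired analysis was possible because the labels give no replicate numbers shared between groups. Signal over background is unknown, and 4 arrays a group and the bound on days 3 and 7 limit what can pass.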

Other observations

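Genes of activated phagocytes and of the cell cycle moved on the same arrays as the members. Of 12 activated phagocyte genes, 8, 5 and 11 were higher in the cerebrum on days 1, 3 and 7 and 5, 8 and 11 in the cord, and 0 were lower. Gpnmb, a glycoprotein of lipid-laden phagocytes, stood at 0.31 on spinal day 1 (limma adjusted p = 0.719) and at 9.13 on spinal day 7 (4.5e-14). Trem2, a lipid-sensing receptor of microglia, stood at -0.57 (0.187) and 5.08 (1.08e-13). Of 7 cell cycle genes, 7, 7 and 5 were higher in the cerebrum. In the cord 0 passed on day 1 in limma (1 at an unadjusted p under 0.05), and 7 were higher on days 3 and 7. Without spinal day 3 replicate 1, the day 3 counts were also 8 of the phagocyte and 7 of the cell cycle genes. The proliferation marker Mki67 rose by 3.13 on cerebral day 1 (3.74e-07), stood at -0.02 on spinal day 1 (0.977) and rose by 6.02 on spinal day 7 (1.41e-14).

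Of 7 astrocyte genes, 7, 2 and 3 were higher in the cerebrum and 3, 1 and 3 in the cord on days 1, 3 and 7, with 1 lower on spinal days 1 and 3. On spinal day 3, 2 astrocyte genes were higher and 0 lower without replicate 1. Of 6 oligodendrocyte genes, 5 were higher on cerebral day 1 and 3 lower on spinal day 1, and 0 passed on the later days of either tissue in limma, also at an unadjusted p under 0.05. Of 6 endothelial genes, 3, 3 and 1 were higher in the cerebrum and 4, 3 and 3 in the cord, with 1 lower on each spinal day (0 on day 3 without its replicate 1). Of 9 lymphocyte genes, 1 was lower on cerebral day 1, 2 were higher on spinal day 1 and 1 on spinal day 7.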
